A study of Mus musculus with 60 samples.

Results

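The 54 genes described here act in DNA replication and cell division, and they were chosen by name, for what each gene does. All 54 were found among the 49315 genes of the count tables, and all 54 passed the low-count filter in every comparison. The 21 S-phase members comprised 10 genes of origin licensing and the replicative helicase (Cdc6, Cdt1, Cdc45, Gins2 and the subunits Mcm2 to Mcm7), 6 genes of DNA synthesis and nucleotide supply (Pcna, Rrm1, Rrm2, Tyms, Tk1, Uhrf1) and 5 cyclins, kinases and E2F factors of the G1/S boundary (Ccne1, Ccne2, Cdk2, E2f1, E2f8). The 33 mitotic members comprised 9 cyclins and kinases, 6 genes of the spindle checkpoint and the anaphase-promoting complex, 6 genes of chromosomes and kinetochores, 10 genes of the spindle and cytokinesis, and the transcription factors Foxm1 and Mybl2.

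The members were measured in whole blood of 60 male CD2F1 mice in 10 groups of 6 mice, each mouse giving 1 RNA library. Every mouse was dosed by mouth for 6 days, either with vehicle or with BIO 300 Oral Powder, a solid dispersion of the isoflavone genistein, so no group was undosed. On Day 0, which was 24 h after the last dose, blood came from a vehicle group and from groups given 50, 100 and 200 mg/kg. On Day 1, which was 48 h after the last dose, blood came from mice given vehicle or the same 3 doses. In a further pair of Day 1 groups, mice given vehicle or 200 mg/kg received total-body gamma irradiation (TBI) of 9.2 Gy on Day 0, so that their blood was taken 24 h after TBI. The mice were 5 to 6 weeks old on purchase, and each mouse gave blood at 1 time point.

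A dividing cell first licenses its replication origins by loading the ring of MCM subunits with the help of Cdc6 and Cdt1, then copies its DNA during S phase, and later condenses and separates its chromosomes under the control of cyclin B, Cdk1, Plk1 and the Aurora kinases. E2F factors switch on the genes of S phase, and Foxm1 and Mybl2 take part in switching on those of mitosis. Most leukocytes in blood have left the cell cycle, and reticulocytes and platelets carry RNA made in precursors of the bone marrow and spleen that divide. Damage to DNA activates p53, whose target Cdkn1a encodes the inhibitor p21 that holds cells before S phase.

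Total counts per library ran from 15099415 to 45589415, with a median of 24877993.5. Values per mouse are CPM, a gene's counts relative to the size of its library, which was scaled by the trimmed mean of M values (TMM), and a gene was called higher or lower when edgeR's quasi-likelihood test gave an adjusted p below 0.05 and an absolute log2 fold change above 1, the thresholds the study used. The scaling mattered here: on Day 1 the TMM factors of vehicle mice were 1.15 to 1.63 and those of the 200 mg/kg mice 0.415 to 0.646. The haemoglobin genes summed to 58270 to 82930 CPM and to 167800 to 429500 CPM in the same groups. These sums are on the TMM scale and so contain those factors. By total counts the mean log2(CPM + 1) of the 4 haemoglobin genes was 11.9 and 12.9. Counts of called members and their medians are therefore given beside those from libraries scaled by total counts alone, and medians also relative to the median of all genes. A change of scaling shifts all genes of a comparison by nearly the same amount. A distance from the median of all genes therefore changes little by construction, and its stability is no check on the scaling. Shares of all genes called are by TMM. They were not computed by total counts, so counts of members called by total counts cannot be set against all genes. In 8 libraries from 7 of the groups, markers of hepatocytes summed to over 1000 CPM. Of 8 granulocyte precursor markers, 1 to 3 had a mean over 1 CPM in a group (Ngp in all 10 groups, Ltf in 9, Prtn3 in irradiated vehicle mice), while Mpo, Elane, Ctsg, Ms4a3 and Camp were under 1 CPM in all 10 groups, and the 8 summed to 1.40 to 24.1 CPM over the mice. Of 6 lymphoid precursor markers only Ebf1, which mature B cells also express, had means over 1 CPM, and the 6 summed to medians of 3.35 to 78.9 CPM over the groups, with Rag1, Rag2, Dntt, Vpreb1 and Igll1 under 1 CPM in all. All 9 erythroid progenitor markers had means over 1 CPM in every group. In whole blood, fewer cells of a type and less RNA per cell cannot be told apart.

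The members differed widely in level per kilobase of exon. In vehicle mice on Day 0 the highest mean levels were those of Nusap1, which bundles spindle microtubules, at 61.5 CPM per kilobase, and of Ube2c, the E2 enzyme of the anaphase-promoting complex, at 59.8 CPM per kilobase. Mki67, which encodes the proliferation marker Ki-67 that coats mitotic chromosomes, had 26.3 CPM per kilobase and Mcm3 had 21.6 CPM per kilobase. The other MCM subunits lay between 1.97 CPM per kilobase for Mcm2 and 5.44 CPM per kilobase for Mcm4. The kinases Cdk1 and Plk1 had 0.403 and 0.472 CPM per kilobase, and Gins2, a subunit of the helicase's GINS complex, was lowest at 0.107 CPM per kilobase.

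Promoter stretches are shown because mitotic and S-phase members held different motifs. The RefSeq windows on GRCm38.p6, from 250 bases before to 50 after the start of transcription, matched 44 of the 54 members, 26 mitotic and 18 S-phase. The core of the cell cycle homology element, TTTGAA, searched on both strands, was in 18 of 26 mitotic windows (69.2%), in 3 of 18 S-phase windows (16.7%) and in 20.2% of the 27025 genes with a window. The E2F motif TTTNNCGC, also searched on both strands, was in 1 of 26 mitotic windows (3.85%), in 9 of 18 S-phase windows (50.0%) and in 5.93% of all genes. CCAAT, the core of the NF-Y element, was in 73.1% and 66.7% of these windows and in 41.1% of all genes. The stretches below, 40 bases each, run 5′ to 3′ on the gene's strand and carry the motif in capitals; TTCAAA and the capitals of the last 3 lines are the same motifs read on the other strand. A match describes the letters only.
Mki67 (chr7:135716455-135716494, minus strand): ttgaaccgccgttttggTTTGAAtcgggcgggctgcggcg
Top2a (chr11:99024190-99024229, minus strand): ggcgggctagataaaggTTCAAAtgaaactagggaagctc
Ccnb2 (chr9:70421699-70421738, minus strand): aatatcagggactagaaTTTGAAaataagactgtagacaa
Cdk1 (chr10:69352913-69352952, minus strand): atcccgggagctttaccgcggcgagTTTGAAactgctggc
Ube2c (chr2:164769883-164769922, plus strand): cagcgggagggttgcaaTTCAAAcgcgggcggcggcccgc
Cdc6 (chr11:98907997-98908036, plus strand): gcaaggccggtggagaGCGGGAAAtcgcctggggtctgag
Mcm5 (chr8:75109344-75109383, plus strand): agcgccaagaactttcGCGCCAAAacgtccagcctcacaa
Cdk2 (chr10:128705168-128705207, minus strand): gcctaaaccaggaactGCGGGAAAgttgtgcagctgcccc
The motif ended 9 bases before the start in Cdk1, 17 in Top2a, 23 in Ube2c and 92 in Mki67. Cdc6, Mcm5 and Cdk2 are 3 of the 9 S-phase members with the E2F motif. Whether a motif went with a change in level was not tested.

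Averaged over the 33 mitotic members, the level per mouse on a log2(CPM + 1) scale was 3.48 ± 0.215 (SD, n = 6) in vehicle mice on Day 0 and 3.27 ± 0.218 in vehicle mice on Day 1. It was lowest after 50 mg/kg on Day 0, at 2.68 ± 0.217, where the highest mouse (3.06) was below the lowest vehicle mouse (3.10). It was highest on Day 1 after 100 mg/kg, at 4.92 ± 0.104, and after 200 mg/kg, at 4.96 ± 0.342, where the lowest mouse of either group (4.61) was above the highest vehicle mouse (3.56). Irradiated vehicle mice had the widest spread, at 3.81 ± 0.818, and irradiated mice given 200 mg/kg had 4.03 ± 0.494. By total counts the mitotic level was again lowest after 50 mg/kg on Day 0 (3.36) and highest on Day 1 after 100 and 200 mg/kg (4.16 and 4.09), against 3.63 and 3.69 in the vehicle groups of Day 0 and Day 1.

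The 21 S-phase members varied less between the groups than the mitotic members. Their mean level ran from 3.18 after 50 mg/kg on Day 0 to 4.23 after 100 and 200 mg/kg on Day 1, and it was 3.34 and 3.46 in the irradiated groups. By total counts this order turned: the level was highest after 50 mg/kg on Day 0, at 3.92, and it was 3.51 and 3.40 after 100 and 200 mg/kg on Day 1, below the 3.83 of vehicle mice. The difference between the S-phase and the mitotic mean within 1 library depends little on the scaling of that library. This difference was between −0.235 and 0.185 in vehicle mice on Day 0 and between −0.0749 and 0.344 in vehicle mice on Day 1. It lay between 0.232 and 0.689 after 50 mg/kg on Day 0, above every vehicle mouse of that day. It lay between −0.823 and −0.598 after 100 mg/kg and between −1.01 and −0.540 after 200 mg/kg on Day 1, below every vehicle mouse. With libraries scaled by total counts the means of this difference were 0.558, −0.655 and −0.688 in these 3 groups and 0.135 in vehicle mice on Day 1. These means over the members are a description and were not tested.

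**Figure D1:**
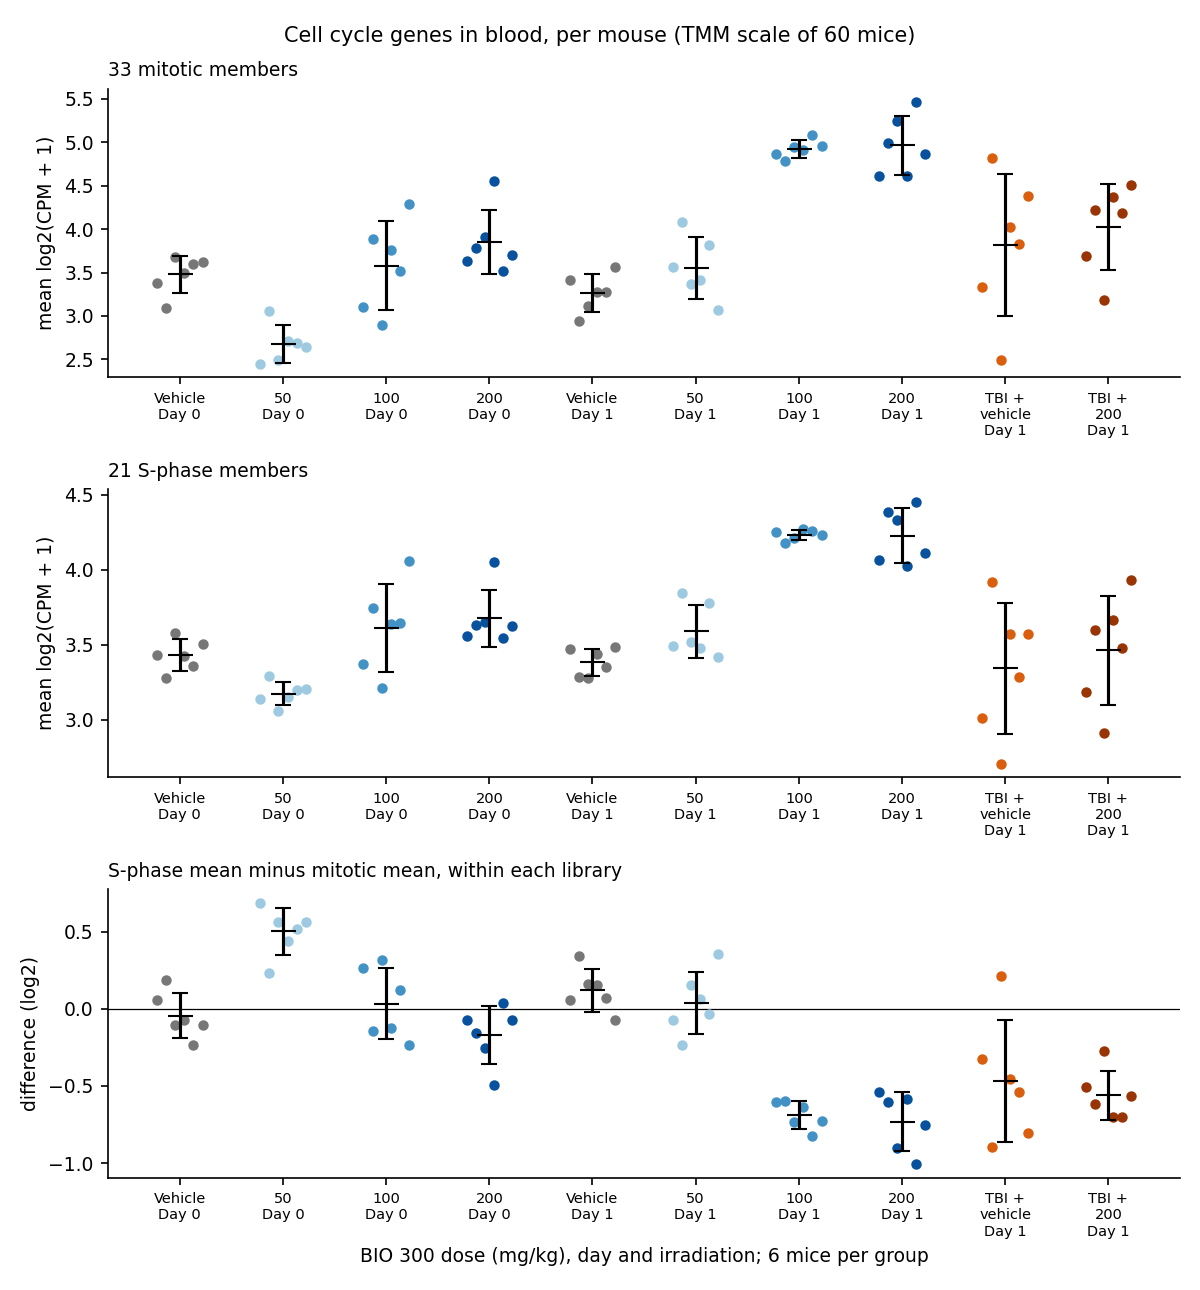
Mean log2(CPM + 1) over the 33 mitotic members (top), over the 21 S-phase members (middle) and their difference (bottom) in each of 60 mice, with the mean ± SD of each group of 6, by TMM. The mitotic mean is lowest after 50 mg/kg on Day 0 (2.68) and highest on Day 1 after 100 and 200 mg/kg (4.92 and 4.96), and the S-phase mean moves less; by total counts the S-phase mean is instead highest after 50 mg/kg on Day 0 (3.92).

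The first comparison asked what 50 mg/kg did by 24 h after the last dose. Of the 54 members, 21 were lower than in vehicle mice on Day 0 and 0 were higher, against 4.38% lower and 0.127% higher among the 24485 genes tested. By phase, 18 of 33 mitotic members and 3 of 21 S-phase members were lower, with a median log2 difference of −1.07 and −0.07 against 0.03 over all genes. By role, the calls took in 7 of 10 spindle and cytokinesis genes, 4 of 6 chromosome and kinetochore genes, 4 of 6 checkpoint genes, 3 of 9 cyclins and kinases, 2 of 10 licensing and helicase genes, 1 of 6 synthesis genes and 0 of 5 G1/S genes. Scaling by total counts moved the median of all genes up by 0.66 and left 0 members lower and 1 higher, Cdk2 at 1.01. The 21 members remained below vehicle in direction. The median of the mitotic members was 1.09 below that of all genes (1.10 by TMM), a distance that scaling hardly alters.

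Mki67 had 161 CPM in the lowest, 259.8 in the median and 349.5 in the highest vehicle mouse on Day 0, and 68.8, 90.2 and 141 CPM after 50 mg/kg. The groups did not overlap, and Mki67 fell by 1.42 on the log2 scale (SE 0.209, adjusted p = 0.00255; −0.75 by total counts). Top2a, the topoisomerase that untangles sister chromatids, had 33.8, 51.5 and 57.7 CPM in the lowest, median and highest vehicle mouse and 17.9, 22.1 and 31.3 CPM after 50 mg/kg. It too fell, by 1.14 (SE 0.152, adjusted p = 0.00255; −0.47 by total counts), without overlap. In all, 20 of the 54 members had groups that did not overlap, against 6.93% of all genes tested.

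Nusap1 had 164, 265 and 311 CPM in the lowest, median and highest vehicle mouse and 58.0, 65.8 and 158 CPM after 50 mg/kg, and fell by 1.58 (SE 0.254, adjusted p = 0.00257; −0.94 by total counts). Together with Ube2c at −1.61 (SE 0.286, adjusted p = 0.00327; −0.97 by total counts) and Mki67 it led the calls. Ube2c nevertheless overlapped, since 1 treated mouse had 105 CPM and the lowest vehicle mouse 97.5 CPM. Birc5, the survivin subunit of the chromosomal passenger complex, had 3.72 to 8.52 CPM in vehicle mice and 1.90 to 3.60 CPM after 50 mg/kg, and fell by 1.29 (SE 0.197, adjusted p = 0.00255; −0.61 by total counts). The S-phase genes that fell were Cdc6 (−1.34, SE 0.252, adjusted p = 0.00434), Mcm3 (−1.08, SE 0.190, adjusted p = 0.00315) and Uhrf1, which guides maintenance methylation of new DNA (−1.01, SE 0.188, adjusted p = 0.0041). By total counts these 3 had −0.70, −0.43 and −0.32.

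Other members were nearer to vehicle after 50 mg/kg on Day 0. Ccnb1, Rrm2, Cdk1, Tyms and E2f1 had log2 differences of −0.93, −0.77, −0.67, −0.60 and −0.59 with adjusted p between 0.0109 and 0.0355, short of the fold threshold, and by total counts −0.26, −0.10, 0.00, 0.10 and 0.10. Mcm2, Pcna and Mcm5 had differences of 0.11, 0.19 and 0.20 with adjusted p of 0.418, 0.193 and 0.257, and Plk1 had −0.30 (adjusted p = 0.418). The within-library ratio of Mcm3 to Mcm5, a ratio chosen after the values were seen, was 3.27 ± 1.11 (SD, n = 6) against 8.21 ± 3.00 in vehicle mice. Erythroid progenitor markers moved in the same mice: 7 of 9 were lower, and their sum was 143 to 309.7 CPM against 325.9 to 594.5 CPM in vehicle mice. Platelet markers (5 of 7 lower, 1159 to 2646 CPM against 2370 to 4754 CPM) and reticulocyte markers (8 of 9 lower) also moved. By total counts 1 of 9 erythroid progenitor, 0 of 7 platelet and 5 of 9 reticulocyte markers were lower. What part these markers had in the members' result was not tested.

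No member was called in 5 of the comparisons. These set 100 mg/kg and 200 mg/kg on Day 0 against vehicle on Day 0, 50 mg/kg on Day 1 against vehicle on Day 1, 200 mg/kg against vehicle after TBI, and vehicle on Day 1 against vehicle on Day 0. By edgeR, 0 genes of any kind were called in each (0% higher, 0% lower), and DESeq2 called 0 members too. Groups overlapped for all 54 members in each, where 0.188%, 0.298%, 1.49%, 0.0682% and 0.693% of all genes tested did not overlap. An unadjusted p below 0.05 was given to 8, 32, 21, 0 and 9 members in that order, and the smallest adjusted p of a member was 1, 0.546, 0.109, 1 and 0.209. The log2 difference was above 0 in 51, 52, 49, 31 and 14 of the 54 members. Over all genes tested the median difference was −0.013, −0.04, −0.045, −0.069 and −0.014. The shares of all genes with an unadjusted p below 0.05 or a difference above 0 were not computed. These counts of members are therefore a description and cannot be set against all genes. The median of the mitotic members against that of all genes was 0.23, 0.57, 0.42, 0.12 and −0.25 by TMM and 0.11, 0.49, 0.39, 0.17 and −0.23 by total counts. The 3 Day 0 doses share the Day 0 vehicle mice, and all Day 1 comparisons of unirradiated doses share the Day 1 vehicle mice.

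**Figure D2:**
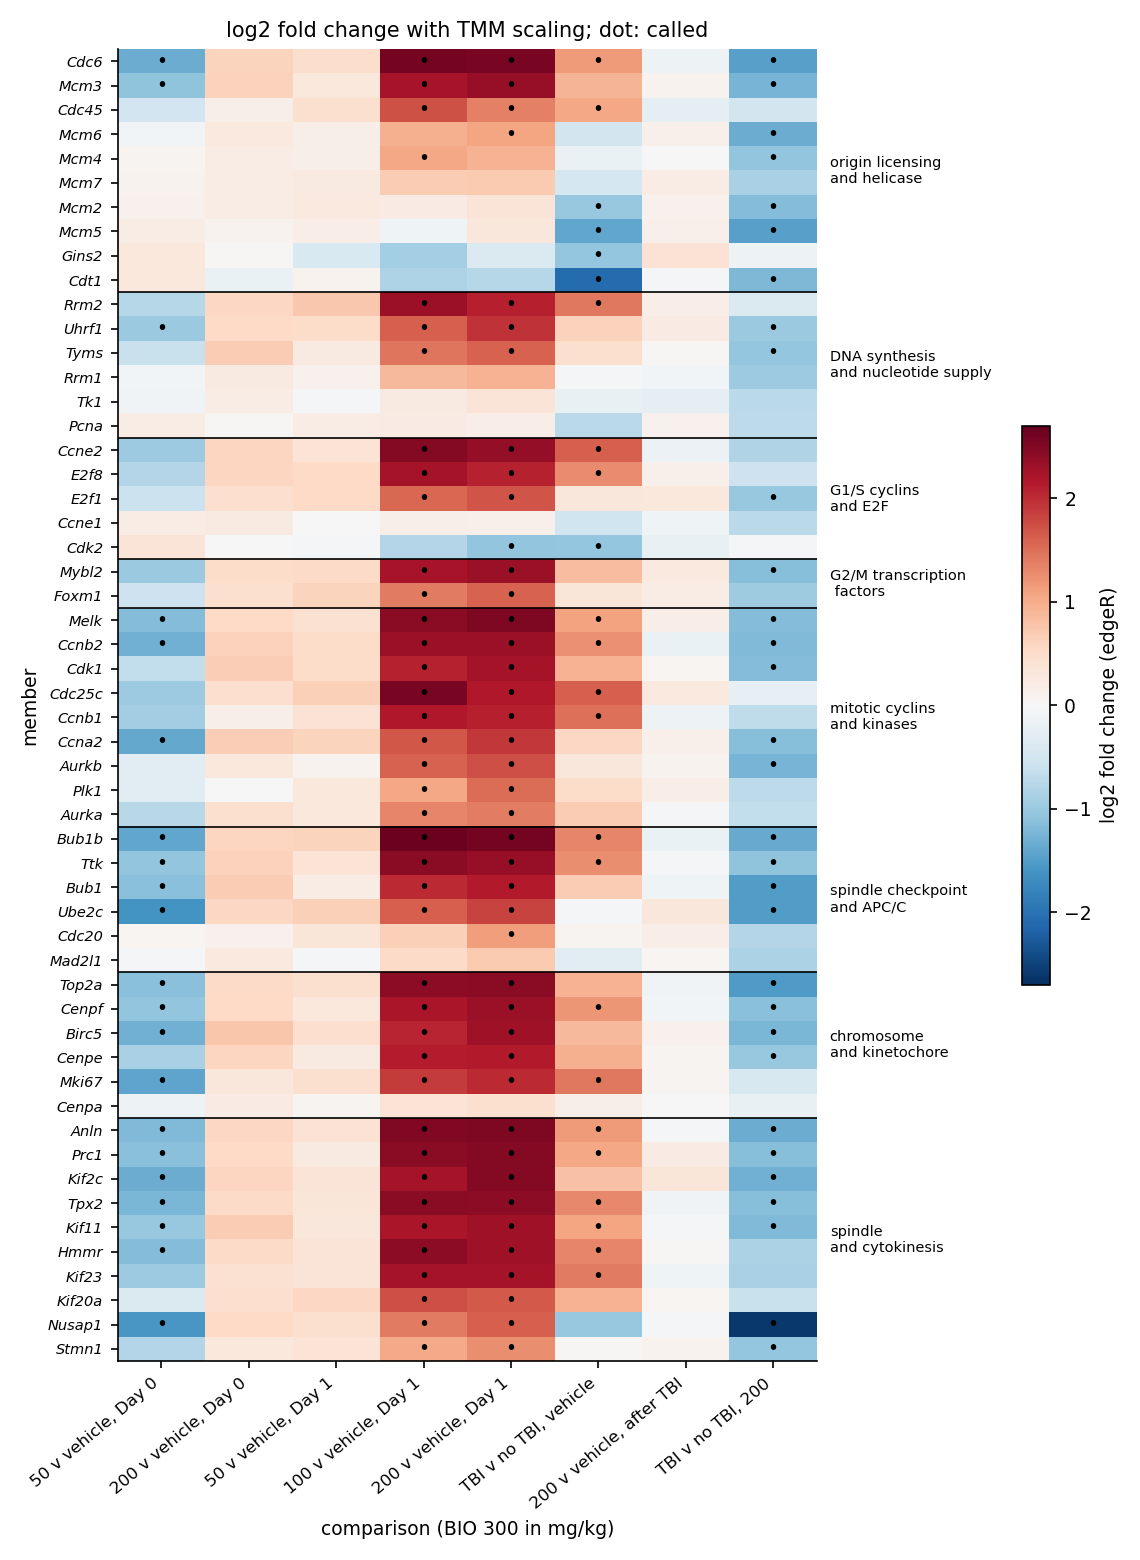
Log2 difference (TMM) of each of the 54 members (rows, grouped by role) in 8 comparisons (columns), with a dot where the member was called. Most mitotic rows are below 0 after 50 mg/kg on Day 0, and all are above 0 on Day 1 after 100 and 200 mg/kg, while licensing and synthesis rows are mixed; by total counts the Day 1 medians of mitotic and S-phase members were 0.73 and −0.43 at 100 mg/kg and 0.58 and −0.61 at 200 mg/kg.

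By 48 h after the last dose, mice given 100 or 200 mg/kg had more mitotic RNA than vehicle mice, by a margin that depended on the scaling. At 100 mg/kg 40 members were higher and 0 lower, among 18.2% higher and 30.6% lower of the 23699 genes tested. At 200 mg/kg 41 were higher and 1 lower, among 17.3% higher and 30.5% lower of the 23513 genes tested. The mitotic calls numbered 30 of 33 and 31 of 33, and the S-phase calls 10 of 21 higher at each dose. All 9 mitotic cyclins and kinases, all 10 spindle and cytokinesis genes, both G2/M transcription factors and 5 of 6 chromosome genes were higher at both doses, but only 4 of 10 licensing and helicase genes. The median log2 difference was 2.11 and 2.16 for mitotic members and 0.96 and 0.95 for S-phase members, against −0.38 and −0.48 for all genes.

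The scaling changed the size of these differences, and by construction far less their distance from the median of all genes. By total counts the median of all genes moved down by 1.38 at 100 mg/kg, to −1.755, and by 1.48 at 200 mg/kg, to −1.957. At 100 mg/kg 11 members were then higher (9 mitotic, 2 S-phase) and 9 lower (8 S-phase and Cenpa, the centromeric histone), and at 200 mg/kg 0 were higher and 9 lower. The mitotic median stood 2.49 above that of all genes at 100 mg/kg (2.48 by total counts) and 2.65 above it at 200 mg/kg (2.54 by total counts). The S-phase median stood 1.34 and 1.43 above it (1.33 and 1.35 by total counts). Of the members called higher by TMM, Aurka and Stmn1 at both doses, Plk1 and Mcm4 at 100 mg/kg, and Cdc20, Mcm6 and Cdc45 at 200 mg/kg had differences below 0 by total counts.

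**Figure D3:**
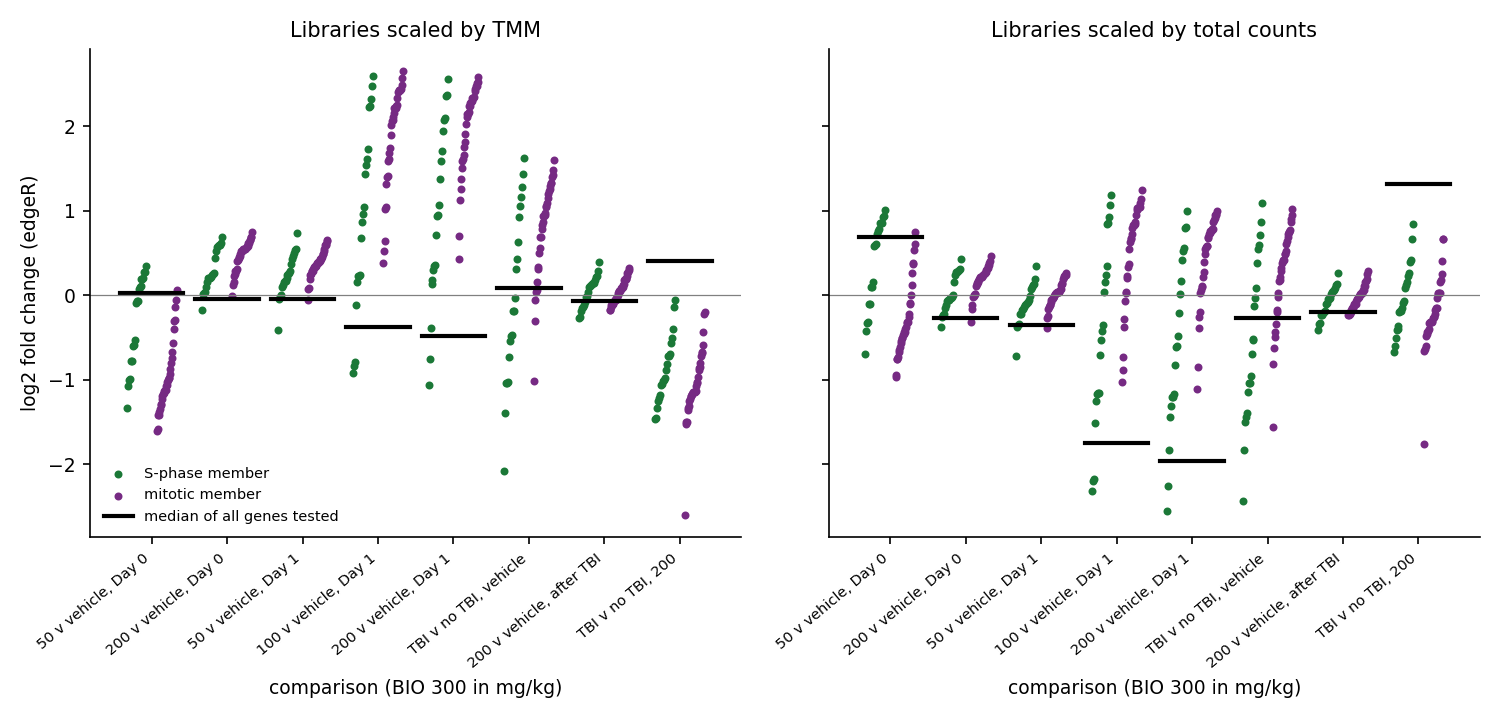
Log2 fold changes of the 54 members (points) in 8 comparisons, by TMM (left) and by total counts (right), with bars at the median of all genes tested. The change of scaling moves members and bars together by construction: at 200 mg/kg on Day 1 the mitotic members stand 2.65 (TMM) or 2.54 (total counts) above the bar.

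Mki67 had 116, 176 and 304 CPM in the lowest, median and highest vehicle mouse on Day 1. It had 637, 656 and 705 CPM at 100 mg/kg and 478, 724 and 1045 CPM at 200 mg/kg, so that neither dose overlapped vehicle. The log2 difference was 1.90 (SE 0.197, adjusted p = 1.57e-06; 0.55 by total counts) and 2.02 (SE 0.241, adjusted p = 5.42e-06; 0.49 by total counts). Top2a went from 27.6, 41.7 and 51.1 CPM in vehicle mice to 166, 203 and 250.1 CPM at 100 mg/kg and 142, 198 and 299.8 CPM at 200 mg/kg. Its log2 difference was 2.42 (SE 0.147, adjusted p = 1.82e-08) and 2.44 (SE 0.193, adjusted p = 8.23e-08), and by total counts 1.03 and 0.89. Groups did not overlap for 43 of 54 members at 100 mg/kg and for 45 at 200 mg/kg, against 47.6% and 47.0% of all genes tested.

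**Figure D4:**
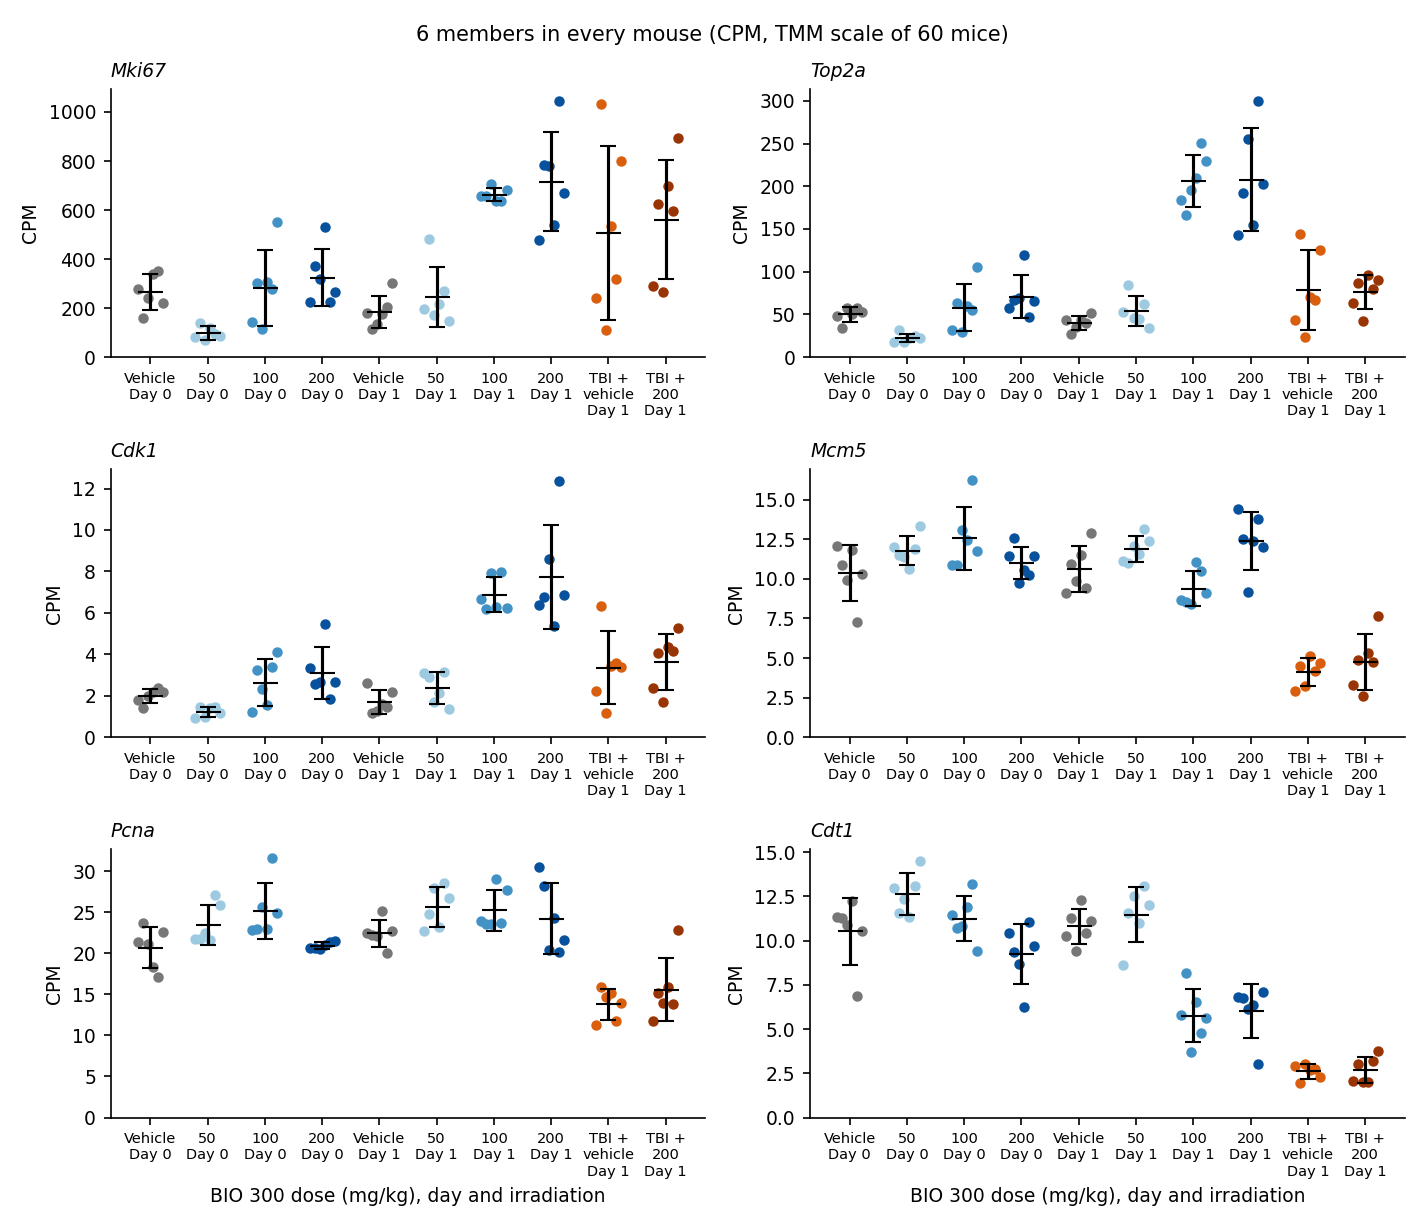
CPM (TMM) of Mki67, Top2a, Cdk1, Mcm5, Pcna and Cdt1 in each of 60 mice by group, with the mean ± SD. Mki67, Top2a and Cdk1 stand above all vehicle mice on Day 1 after 100 and 200 mg/kg, Mcm5 and Pcna overlap vehicle there (both are lower there by total counts), and Cdt1 is lower there and lowest after irradiation by either scaling.

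The largest differences at 100 mg/kg were those of Bub1b, the BubR1 kinase of the spindle checkpoint (2.65, SE 0.128, adjusted p = 7.28e-09), Cdc6, which loads the MCM ring (2.59, SE 0.129, adjusted p = 7.38e-09), and Cdc25c, the phosphatase that activates Cdk1 (2.57, SE 0.176, adjusted p = 4.15e-08). At 200 mg/kg they were those of Bub1b (2.58, SE 0.214, adjusted p = 1.3e-07), Cdc6 (2.55, SE 0.185, adjusted p = 3.78e-08) and Anln, the anillin of the cleavage furrow (2.52, SE 0.191, adjusted p = 5.49e-08). Bub1b had 14.1 to 22.9 CPM in vehicle mice, 99.4 to 138 CPM at 100 mg/kg and 69.4 to 181 CPM at 200 mg/kg. Cdc6 had 5.04 to 8.35, 35.5 to 50.1 and 27.1 to 58.8 CPM in the same groups, and Anln had 9.58 to 15.5, 64.3 to 86.4 and 50.0 to 112 CPM. These 4 genes kept a positive difference by total counts at either dose, of 1.24, 1.19, 1.14 and 1.09 for Bub1b, Cdc6, Cdc25c and Anln at 100 mg/kg and 0.99, 0.99, 0.55 and 0.96 at 200 mg/kg.

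The core of the mitotic entry machinery moved with them. Cdk1 had 1.16, 1.53 and 2.60 CPM in the lowest, median and highest vehicle mouse, 6.19, 6.48 and 7.96 CPM at 100 mg/kg and 5.38, 6.82 and 12.4 CPM at 200 mg/kg. Its differences were 2.07 (SE 0.208, adjusted p = 1.17e-06) and 2.24 (SE 0.253, adjusted p = 3e-06), and by total counts 0.68 and 0.69. Its partner Ccnb1 rose by 2.16 (SE 0.194, adjusted p = 3.93e-07) and by 2.10 (SE 0.215, adjusted p = 1.1e-06), with 0.79 and 0.57 by total counts, and the ratio of Ccnb1 to Cdk1 was 1.11 and 0.963 at these doses against 1.08 in vehicle mice. Birc5 rose by 2.06 (SE 0.162) and 2.29 (SE 0.180), with adjusted p of 1.21e-07 and 7.76e-08, and had 0.66 and 0.76 by total counts. Plk1, the polo kinase, was the weakest of the fixed mitotic genes at 1.05 (SE 0.311, adjusted p = 0.0089; −0.28 by total counts) and 1.51 (SE 0.334, adjusted p = 0.0013; 0.02 by total counts).

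S-phase genes split. Rrm2, the inducible subunit of ribonucleotide reductase, rose by 2.32 (SE 0.171, adjusted p = 7e-08) at 100 mg/kg and by 2.10 (SE 0.211, adjusted p = 8.95e-07) at 200 mg/kg, from 5.48 to 11.9 CPM in vehicle mice to 31.1 to 49.1 and 20.3 to 47.4 CPM, and had 0.93 and 0.56 by total counts. Its partner Rrm1 had differences of 0.87 and 0.94, short of the fold threshold and below 0 by total counts. Tyms, thymidylate synthase, rose by 1.44 (SE 0.135, adjusted p = 6.02e-07) and 1.59 (SE 0.211, adjusted p = 1.61e-05), and E2f1 by 1.54 (SE 0.156, adjusted p = 1.21e-06) and 1.70 (SE 0.175, adjusted p = 1.15e-06). By total counts Tyms had 0.04 and 0.02, and E2f1 0.16 and 0.17. Pcna, the sliding clamp of the DNA polymerases, had 20.0, 22.4 and 25.1 CPM in the lowest, median and highest vehicle mouse, 23.5, 23.8 and 29.1 CPM at 100 mg/kg and 20.2, 23.0 and 30.5 CPM at 200 mg/kg. Its differences of 0.23 (SE 0.091, adjusted p = 0.0378) and 0.19 (SE 0.119, adjusted p = 0.187) were not called by TMM, and by total counts they were −1.17 and −1.32.

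The 6 subunits of the MCM ring, which act together as 1 hexamer, did not move together in RNA. Mcm3 had 49.4, 69.8 and 85.0 CPM in the lowest, median and highest vehicle mouse, 257, 306 and 409.6 CPM at 100 mg/kg and 254, 313 and 493 CPM at 200 mg/kg. Its difference was 2.23 (SE 0.145, adjusted p = 2.91e-08) and 2.35 (SE 0.180, adjusted p = 6.07e-08), and it stayed above 0 by total counts (0.84 and 0.80). Mcm4 and Mcm6 had differences of 1.04 and 0.96 at 100 mg/kg and 0.95 and 1.07 at 200 mg/kg, all below 0 by total counts. Mcm7, with differences of 0.68 and 0.71, was also below 0 by total counts. Mcm2 had 0.23 (SE 0.134, adjusted p = 0.143) and 0.36 (SE 0.137, adjusted p = 0.0343), and Mcm5 had −0.12 (SE 0.123, adjusted p = 0.408) and 0.30 (SE 0.134, adjusted p = 0.0655), and by total counts both were lower at either dose. Within single libraries, which no scaling touches, the ratio of Mcm3 to Mcm5 was 4.52 to 7.80 in vehicle mice, 28.2 to 39.1 after 100 mg/kg and 17.6 to 43.8 after 200 mg/kg. It was 10.3 to 59.4 in irradiated vehicle mice and 22.4 to 37.4 in irradiated mice given 200 mg/kg, which overlapped the unirradiated mice of those doses.

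**Figure D5:**
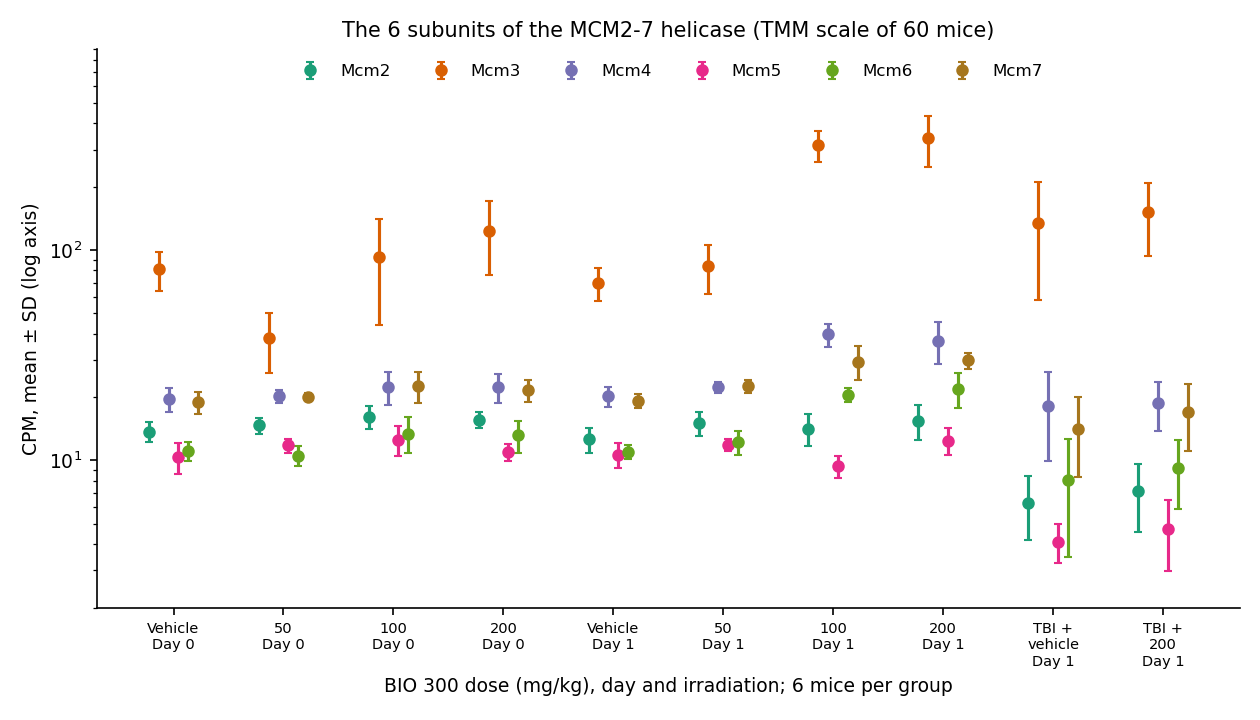
CPM (TMM, log axis) of the MCM subunits Mcm2 to Mcm7 in the 10 groups, as mean ± SD over 6 mice. Mcm3 rises above the other subunits on Day 1 after 100 and 200 mg/kg (mean ratio to Mcm5 of 33.5 and 28.2, against 6.61 in vehicle mice and 31.9 and 31.6 in the irradiated groups), and Mcm2 and Mcm5 are lowest in the irradiated groups, by either scaling.

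Some other partners that act together also parted in the same libraries, in ratios that were not planned, whereas Ccnb1 and Cdk1, given above, did not. The ratio of Ccne2 to Ccne1, the cyclins E that start S phase with Cdk2, was on average 4.81 in vehicle mice, 23.5 at 100 mg/kg and 21.9 at 200 mg/kg. The ratio of Cdc6 to Cdt1, the MCM loaders, was 0.669, 7.69 and 7.83. After TBI these ratios had means of 21.1 and 6.99 in vehicle mice and 21.1 and 5.81 at 200 mg/kg. Cdt1 itself had 9.43, 10.8 and 12.3 CPM in the lowest, median and highest vehicle mouse, 3.72, 5.69 and 8.16 CPM at 100 mg/kg and 3.04, 6.55 and 7.07 CPM at 200 mg/kg, with no overlap and differences of −0.83 (SE 0.174, adjusted p = 0.000808) and −0.76 (SE 0.180, adjusted p = 0.00203). Cdk2, the S-phase kinase, was the member called in the other direction at 200 mg/kg: it fell by 1.06 (SE 0.189, adjusted p = 0.000223) from 8.81, 9.81 and 11.1 CPM to 2.93, 4.41 and 6.22 CPM. At 100 mg/kg its difference was −0.79 (SE 0.176, adjusted p = 0.00127). Cdt1 and Cdk2 were lower by total counts as well, between −2.18 and −2.56.

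Blood cell markers moved alongside the members at these doses on Day 1. The erythroid progenitor markers, all 9 of which were higher at both doses, summed to 261.9 to 410.2 CPM in vehicle mice, 1488 to 1980 CPM at 100 mg/kg and 1270 to 2949 CPM at 200 mg/kg. The platelet markers, all 7 higher, summed to 1885 to 3814 CPM, 14420 to 32640 CPM and 13850 to 24240 CPM. The B-cell markers, all 8 lower, summed to 1142 to 1746 CPM, 306.9 to 756.5 CPM and 177.4 to 600.6 CPM, and the 8 T-cell markers were lower too. By total counts 5 and 4 of the 9 erythroid progenitor markers were higher at 100 and 200 mg/kg. All 7 platelet markers stayed higher by total counts, and all 8 B-cell and 8 T-cell markers stayed lower. Their part in the members' result was not tested.

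After irradiation of vehicle mice, members were called in both directions. Against vehicle mice on Day 1, 19 members were higher (14 mitotic, 5 S-phase) and 5 lower, all of them S-phase genes, among 19.6% higher and 16.4% lower of the 25146 genes tested. The 5 lower were a smaller share of the 54 members than the 16.4% of all genes. The median log2 difference was 0.94 for mitotic and −0.19 for S-phase members against 0.09 for all genes, so the mitotic median stood 0.85 above that of all genes (0.68 by total counts) and the S-phase median 0.28 below it (0.26 by total counts). By role, 6 of 10 spindle and cytokinesis genes, 4 of 9 mitotic cyclins and kinases and 2 of 10 licensing and helicase genes were higher, while 4 of 10 licensing and helicase genes and 1 of 5 G1/S genes were lower. By total counts, 2 members were higher (Cdc25c and Ccne2) and 9 lower, and the 5 members lower by TMM were among these 9.

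Of the 5 that fell, all but Gins2 did not overlap vehicle mice. Cdt1 had 9.43, 10.8 and 12.3 CPM in the lowest, median and highest unirradiated mouse and 1.94, 2.72 and 3.04 CPM after TBI, a fall of 2.08 on the log2 scale (SE 0.157, adjusted p = 2.83e-06; −2.43 by total counts). Mcm5 went from 9.09, 10.39 and 12.9 CPM to 2.93, 4.33 and 5.16 CPM and fell by 1.40 (SE 0.181, adjusted p = 6.67e-05; −1.83 by total counts). Mcm2 went from 12.6 ± 1.73 CPM (SD, n = 6) to 6.31 ± 2.12 CPM, without overlap, and fell by 1.03 (SE 0.228, adjusted p = 0.00282). Cdk2 fell by 1.04 (SE 0.165, adjusted p = 0.000268), and Gins2, under 1 CPM in every mouse, by 1.03 (SE 0.399, adjusted p = 0.0485). Pcna had a difference of −0.74 (SE 0.124, adjusted p = 0.000422), below the fold threshold, with 11.3 to 15.9 CPM after TBI against 20.0 to 25.1 CPM. Groups did not overlap for 5 of the 54 members, Cdt1, Mcm5, Mcm2, Cdk2 and Pcna, which is a smaller share than the 25.1% of all genes tested whose groups did not overlap.

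The 19 that rose all overlapped vehicle mice, and the irradiated mice spread widely. Ccne2 had 22.0, 30.3 and 40.1 CPM in the lowest, median and highest unirradiated mouse and 32.1, 90.9 and 181 CPM after TBI, a difference of 1.62 (SE 0.321, adjusted p = 0.00131; 1.09 by total counts). Cdc25c rose by 1.60 (SE 0.370, adjusted p = 0.00359), Ccnb1 by 1.49 (SE 0.408, adjusted p = 0.0101) and Rrm2 by 1.43 (SE 0.387, adjusted p = 0.00907). Mki67 rose by 1.42 (SE 0.462, adjusted p = 0.0233), from 116 to 304 CPM to 111, 427 and 1034 CPM in the lowest, median and highest irradiated mouse. The other fixed members were not called: Top2a and Cdk1 had differences of 0.94 and 0.95, and Birc5, Plk1, Tyms and E2f1 of 0.87, 0.50, 0.43 and 0.31.

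Single mice carried much of this spread. Irradiated vehicle mouse 50 had the highest mitotic mean (4.82), and without it 9 members were higher and 4 lower. Mouse 51 had the lowest (2.49) with hepatocyte markers summing to 30190 CPM, and without it 27 were higher and 3 lower. Erythroid progenitor markers in these 6 mice ran from 320.1 to 2361 CPM, with 8 of 9 higher than in vehicle mice, and platelet markers from 3922 to 27420 CPM. All 8 neutrophil markers were higher than in vehicle mice (median log2 difference 2.83), and all 8 B-cell and all 8 T-cell markers were lower (medians −3.54 and −2.32). By total counts 6 of 9 erythroid progenitor and 7 of 8 neutrophil markers were higher, and all 8 B-cell and 8 T-cell markers stayed lower. The part of these markers in the members' result was not tested. Against vehicle mice on Day 0 the same irradiated mice gave 12 members higher and 4 lower, among 15.1% higher and 11.8% lower of all genes, and 5 members did not overlap, against 18.8% of all genes tested. Both the 4 lower and the 5 without overlap were smaller shares of the 54 members than those of all genes. The 4 lower members were Cdt1 (−1.94, SE 0.179, adjusted p = 2.23e-05), Nusap1 (−1.56, SE 0.430, adjusted p = 0.0128), Mcm5 (−1.24, SE 0.209, adjusted p = 0.000636) and Mcm2 (−1.02, SE 0.247, adjusted p = 0.00642). The largest rises were Ccne2 (1.66, SE 0.356, adjusted p = 0.00303), E2f8 (1.45, SE 0.372, adjusted p = 0.00854) and Rrm2 (1.42, SE 0.404, adjusted p = 0.0152). In that comparison 3 members were higher and 4 lower without mouse 50, 23 higher and 3 lower without mouse 51, and 28 higher and 3 lower without the hepatocyte-marked libraries. For the refits of both comparisons, shares of all genes called were not computed, so these counts cannot be set against all genes.

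In mice given 200 mg/kg, irradiation went with lower levels. Irradiated mice had 31 members lower (21 mitotic, 10 S-phase) and 0 higher than unirradiated mice of that dose on Day 1, among 5.73% lower and 14.9% higher of the 23610 genes tested, and 24 members did not overlap, against 17.3% of all genes tested. The median log2 difference was −1.14 for mitotic and −0.98 for S-phase members against 0.41 for all genes. By total counts the median of all genes moved up by 0.90 and only Nusap1 remained lower. The mitotic median was 1.57 below that of all genes (1.55 by TMM), a distance that scaling hardly alters. Among the markers, by TMM, 8 of 9 reticulocyte, 3 of 4 haemoglobin and 7 of 8 B-cell genes were lower (medians −2.04, −1.64 and −2.41). Also by TMM, 7 of 8 neutrophil genes were higher (median 2.58), while 1 of 9 erythroid progenitor and 0 of 7 platelet markers were called lower. The mean log2(CPM + 1) of erythroid progenitor markers went from 6.2 to 6.0 by TMM but from 5.28 to 5.86 by total counts. That of platelet markers went from 10.9 to 10.7 by TMM but from 9.92 to 10.5 by total counts. The means of the reticulocyte, haemoglobin, B-cell and neutrophil markers kept their direction by total counts. What part these markers had was not tested. The count changed when single mice were left out: 11 members were lower without irradiated mouse 57, whose hepatocyte markers summed to 10080 CPM. It was 13 without unirradiated mouse 47 and 18 without unirradiated mouse 45. Shares of all genes called in these refits were not computed, so these counts cannot be set against all genes.

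The spindle gene Nusap1 showed the largest difference in treated mice. It had 352, 409 and 572 CPM in the lowest, median and highest unirradiated mouse at 200 mg/kg and 35.2, 85.9 and 105 CPM after TBI, a fall of 2.60 (SE 0.268, adjusted p = 4.48e-05; −1.76 by total counts). Top2a fell by 1.53 (SE 0.248, adjusted p = 0.000703; −0.64 by total counts) and Ube2c by 1.51 (SE 0.307, adjusted p = 0.00292; −0.66 by total counts), whereas Mki67 had a difference of −0.44 (SE 0.314, adjusted p = 0.31) and Rrm2 of −0.40 (SE 0.314, adjusted p = 0.357). Mcm5 fell by 1.46 (SE 0.247, adjusted p = 0.000944), Mcm2 by 1.18 (SE 0.243, adjusted p = 0.00309), Birc5 by 1.23 (SE 0.345, adjusted p = 0.0178), Cdk1 by 1.17 (SE 0.318, adjusted p = 0.0153), Tyms by 1.05 (SE 0.281, adjusted p = 0.014) and E2f1 by 1.02 (SE 0.274, adjusted p = 0.0148). By total counts these 6 lay between −0.67 for Mcm5 and −0.15 for Tyms. Pcna, Ccnb1 and Plk1 had differences of −0.70, −0.68 and −0.72 and were not called.

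Within single libraries Nusap1 and Mki67 parted after irradiation, a ratio chosen after the values were seen. Mki67 over Nusap1 was 1.05 to 1.34 in vehicle mice on Day 1 and 1.15 to 1.94 at 200 mg/kg. It was 5.05 to 7.44 in irradiated vehicle mice and 4.98 to 9.03 in irradiated mice given 200 mg/kg. Over the 8 unirradiated groups the highest mouse, at 100 mg/kg on Day 1, reached 2.19, so the 12 irradiated mice lay apart from the 48 others. Between irradiated mice given 200 mg/kg and vehicle, the median log2 difference was 0.05 for mitotic and 0.09 for S-phase members, the 54 adjusted p values were all 1, and Cdt1 had 2.01 to 3.77 CPM against 1.94 to 3.04 CPM. The errors there were wide, with an SE of 0.429 on the log2 scale for Nusap1, 0.411 for Mcm3 and 0.227 for Cdt1.

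The differences between these effects were tested as interactions. The effect of TBI in mice given 200 mg/kg minus that in vehicle mice was lower for 36 members (27 mitotic, 9 S-phase) and higher for 1, Cdk2 (1.10, SE 0.294, adjusted p = 0.00615), among 10.0% lower and 19.5% higher of all genes. The largest were Bub1b (−2.54, SE 0.497, adjusted p = 0.000631), Cdc6 (−2.48, SE 0.492, adjusted p = 0.000711) and Anln (−2.35, SE 0.440, adjusted p = 0.000467), and by total counts 6 members were lower and 8 higher. The unirradiated mice at 200 mg/kg already stood above vehicle mice in these genes, as given above, and no member was called between the irradiated groups.

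The dose effect on Day 1 minus that on Day 0 was tested at each dose. It was higher for 37 members and lower for 1 at 200 mg/kg (13.1% and 23.6% of all genes), for 38 and 1 at 100 mg/kg (15.7% and 26.3%), and for 34 and 0 at 50 mg/kg (6.73% and 0.961%). The member that was lower at the higher doses was again Cdk2, with −1.07 (SE 0.208, adjusted p = 0.000198) at 200 mg/kg and −1.05 (SE 0.202, adjusted p = 0.000133) at 100 mg/kg. Bub1b had 2.04 (SE 0.340, adjusted p = 3.73e-05) at 200 mg/kg, and 2.47 (SE 0.381, adjusted p = 1.1e-05) at 100 mg/kg. Ube2c led at 50 mg/kg with 2.26 (SE 0.421, adjusted p = 0.000585). By total counts 0, 4 and 1 members were higher and 9, 12 and 4 lower, and the mitotic median stood 1.94, 2.35 and 1.39 above that of all genes (1.98, 2.18 and 1.47 by TMM). At 50 mg/kg the difference came with members lower on Day 0 and none called on Day 1.

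The rest of the cell cycle was read from lists of 50 other replication genes, 70 other mitotic genes, 29 cell cycle inhibitors and 11 genes of G1 entry. After 50 mg/kg on Day 0, 25 of the 70 other mitotic genes and 2 of the 50 other replication genes were lower. Among all genes tested 4.38% were lower, a share near that of the replication genes. By total counts 1 other mitotic and 1 other replication gene were lower and 0 and 4 higher. Cdc25b, a phosphatase that activates Cdk1, fell by 1.66 (SE 0.272, adjusted p = 0.00266). On Day 1, 55 and 56 of the other mitotic genes were higher at 100 and 200 mg/kg, as were 24 of the other replication genes at either dose. Among all genes tested 18.2% and 17.3% were higher. In the other direction 1 and 0 of the mitotic genes, and 2 of the replication genes at either dose, were lower. The medians were 1.88 and 1.95 for mitotic and 0.90 and 0.97 for replication genes. By total counts 14 and 5 of the other mitotic genes were higher and 8 and 10 lower, and of the other replication genes 0 and 1 were higher and 17 lower at either dose, with medians of −0.49 and −0.57. Iqgap3, a scaffold protein, rose by 2.67 (SE 0.139, adjusted p = 8.3e-09) and 2.82 (SE 0.215, adjusted p = 5.8e-08), and the replication factor Mcm10 by 2.33 and 2.61.

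The inhibitors and G1 genes set the irradiated and the dosed mice side by side. Cdkn1a had 1.00, 1.82 and 2.38 CPM in the lowest, median and highest vehicle mouse on Day 1 and 16.7, 27.7 and 78.4 CPM after TBI, a rise of 4.31 (SE 0.388, adjusted p = 6.95e-06; 4.06 by total counts). Ccng1, another p53 target, rose by 1.92 (SE 0.135, adjusted p = 1.76e-06; 1.48 by total counts). In mice given 200 mg/kg, Cdkn1a rose by 3.67 after TBI (SE 0.348, adjusted p = 3.1e-05), and between the irradiated groups its difference was −0.11 (SE 0.378, adjusted p = 1). Without irradiation Cdkn1a had a difference of 0.41 at 100 mg/kg and of 0.64 at 200 mg/kg on Day 1 (adjusted p = 0.191 and 0.108; both below 0 by total counts). Of the 29 inhibitors, 11 and 12 were higher and 1 lower at these doses, and 11 higher and 3 lower after TBI in vehicle mice. By total counts 2 and 1 were higher and 13 lower at these doses, and 3 higher and 3 lower after TBI. Among other inhibitors, Cdkn2b, which blocks Cdk4 and Cdk6, rose by 3.04 and 3.50 at these doses and by 2.59 after TBI. At these doses 2 and 6 of the 11 G1 entry genes were higher and 2 and 1 lower, and after TBI 3 were higher and 2 lower. By total counts 0 were higher and 3 lower at either dose, and 1 higher and 1 lower after TBI. Among all genes tested 18.2% and 17.3% were higher and 30.6% and 30.5% lower at these doses. Of the G1 entry genes, Myc fell by 1.41 and 1.39 at these doses and by 1.89 after TBI, while Ccnd3 rose by 1.49, 1.61 and 1.26. After TBI in vehicle mice 28 of the 70 other mitotic genes were higher and 1 lower. Of the 50 other replication genes 2 were higher and 9 lower. Among all genes tested 19.6% were higher and 16.4% lower, and the replication genes that fell were near that share. The lists were led by Gtse1, a p53-linked gene of G2 and S phase (2.52, SE 0.266, adjusted p = 1.88e-05), and by Pold1, the catalytic subunit of DNA polymerase delta (−2.28, SE 0.174, adjusted p = 3.02e-06). By total counts 5 of the other mitotic genes were higher and 4 lower, and 1 of the other replication genes was higher and 16 lower.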

How the data were processed

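Whole blood was drawn into PAXgene tubes and its RNA sequenced in 60 mice. The authors used Trimmomatic 0.36 for trimming, STAR 2.5.2b for alignment to GRCm38, and Subread 1.5.2 to count uniquely assigned reads per gene; the annotation release is not given in the sources used here, and the sources differ on whether libraries were ribosome- and globin-depleted or poly(A)-selected. The deposited values used here are raw counts per gene in 10 tables of 49315 genes. The deposited tables of fold changes and p-values were read for gene names only. Genes with at least 10 counts over a comparison's mice were fitted with edgeR 4.0.16 in R 4.3.3 (TMM, quasi-likelihood F-test, Benjamini-Hochberg over all genes tested), each comparison on its own groups, 11 of them between 2 groups and 4 as interactions; the interval of a difference follows from its SE. Levels per kilobase use union exon length in GENCODE M21. The pipeline was tested on simulated data. Alternatives were DESeq2 1.42.0, its size factors, total counts, other low-count filters, a pseudocount of 0.25 in place of 1, leaving out each mouse, and, added after the data were seen, leaving out 8 libraries with hepatocyte markers.

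Named genes were 12 fixed members (Mki67, Top2a, Ccnb1, Cdk1, Plk1, Birc5, Mcm2, Mcm5, Pcna, Rrm2, Tyms, E2f1), in each comparison the 3 called members of largest difference in each direction with a mean of at least 1 CPM, members called against the majority, the like in the other lists, and Cdkn1a and Ccng1. Further members were named after their values were seen. The members and the lists were chosen with earlier results of these data known.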

Additional observations from a re-analysis of the deposited data

Results flagged for a closer look

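In 7 of the 150 groups of 6 mice tested (15 measures on a log2(CPM + 1) scale in 10 groups), 1 mouse stood apart from the other 5 by more than Dixon's 95% critical value for 6 samples; chance gives about 1 in 20. Mouse 22, given 200 mg/kg and sampled on Day 0, accounted for 3 of them: its mean over the S-phase members was 4.06 (nearest mouse 3.65), its Rrm2 4.66 (nearest 3.73) and its E2f1 2.99 (nearest 2.39), all high. Mouse 14 of the Day 0 vehicle group had low Top2a at 5.12 (nearest 5.63). After 50 mg/kg on Day 0, mouse 5 had high Plk1 at 1.17 (nearest 0.853) and mouse 3 low Rrm2 at 2.14 (nearest 2.67). After 100 mg/kg on Day 0, mouse 11 had high Pcna at 5.03 (nearest 4.74).

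The same contrast differed between groups in 4 interaction tests. The effect of TBI differed between vehicle and 200 mg/kg for 37 members (1 higher, 36 lower), among 19.5% higher and 10.0% lower of all genes. The effect of dose differed between Day 0 and Day 1 for 38 members at 200 mg/kg (37 higher, 1 lower), among 13.1% higher and 23.6% lower of all genes. It differed for 39 at 100 mg/kg (38 higher, 1 lower), among 15.7% higher and 26.3% lower. At 50 mg/kg it differed for 34 (34 higher, 0 lower), among 6.73% higher and 0.961% lower. By total counts the TBI test gave 8 higher and 6 lower. The dose tests gave 0, 4 and 1 higher and 9, 12 and 4 lower at 200, 100 and 50 mg/kg.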

How the results depend on the processing

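The counts of members called in the 15 comparisons stayed within 1.5 times under DESeq2, its size factors in edgeR, and both other low-count filters. Total counts in place of TMM gave 1 call after 50 mg/kg on Day 0, 20 (11 higher, 9 lower) and 9 (0 higher, 9 lower) after 100 and 200 mg/kg on Day 1, 11 (2 higher, 9 lower) and 8 (4 higher, 4 lower) for irradiated vehicle mice against vehicle on Day 1 and Day 0, and 1 for irradiated against unirradiated mice at 200 mg/kg. In the interactions it gave 14 (8 higher, 6 lower) for irradiation by dose, and 9, 16 (4 higher, 12 lower) and 5 (1 higher, 4 lower) for day by 200, 100 and 50 mg/kg. It turned the sign of Plk1 (−0.28), Mcm2 (−1.16) and Pcna (−1.17) at 100 mg/kg and of Mcm2 (−1.17), Mcm5 (−1.21) and Pcna (−1.32) at 200 mg/kg on Day 1, of Mcm2 (1.14) in irradiation by dose, of Mcm2 (−1.11), Mcm5 (−1.06) and Pcna (−1.10) in day by 200 mg/kg, and of Tyms (−0.23) and E2f1 (−0.12) in day by 100 mg/kg. Without the hepatocyte-marked libraries, 31 members were called for irradiated vehicle mice against vehicle on Day 0 and 11 for irradiated against unirradiated mice at 200 mg/kg; the cause was not tested. When mice were left out 1 at a time, calls numbered 18 to 27 after 50 mg/kg on Day 0, 38 to 40 and 40 to 44 after 100 and 200 mg/kg on Day 1, 13 to 30 and 7 to 26 for irradiated vehicle mice against vehicle on Day 1 and Day 0, 11 to 33 for irradiated against unirradiated mice at 200 mg/kg, and 0 elsewhere; interactions were not refitted this way. Shares of all genes called in the refits without single mice or without the hepatocyte-marked libraries were not computed. Total counts moved 9 of 30 group levels and the pseudocount 5. No paired analysis was possible because the groups share no mouse numbers. With 6 mice a group, the SEs of irradiated groups limit what could be seen.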

Other observations

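Genes of the other cell cycle lists with the largest differences, chosen by the same rule as the members, are given here for 3 comparisons. After 50 mg/kg on Day 0, E2f2, an E2F factor, had 737 to 1510 CPM in vehicle mice and 239 to 676 CPM in treated mice, and fell by 1.69 (SE 0.283, adjusted p = 0.00272; −1.04 by total counts). Rb1, the retinoblastoma protein that holds E2F factors, had 289 to 526 CPM and 131 to 277 CPM and fell by 1.25 (SE 0.199, adjusted p = 0.00256), the stress-induced Gadd45a fell by 1.39 (SE 0.209, adjusted p = 0.00255), and the replication factor Mcm10 fell by 1.84 (SE 0.407, adjusted p = 0.0102). By total counts Rb1, Gadd45a and Mcm10 had −0.595, −0.732 and −1.14. Activators and inhibitors of S-phase entry were thus both among the calls by TMM. By total counts 0 of the 29 inhibitors were lower and 1 was higher.

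At 200 mg/kg on Day 1, the checkpoint kinase Chek2 had 5.26 to 7.55 CPM in vehicle mice and 21.7 to 42.8 CPM in treated mice, and rose by 2.40 (SE 0.166, adjusted p = 2.79e-08; 0.84 by total counts). The cyclin D3 gene Ccnd3 had 115 to 146 CPM and 275 to 409.7 CPM and rose by 1.61 (SE 0.119, adjusted p = 4.78e-08; 0.07 by total counts). Sfn, which encodes 14-3-3 sigma, fell by 2.31 (SE 0.279, adjusted p = 6.17e-06), from 3.31 to 4.99 CPM to 0.485 to 1.47 CPM. In mice given 200 mg/kg, irradiated against unirradiated, Cdc25b had 155 to 739 CPM against 1864 to 4403 CPM and fell by 2.82 (SE 0.377, adjusted p = 0.000195; −2.03 by total counts), and Pttg1, the securin that guards sister chromatids, fell by 2.07 (SE 0.285, adjusted p = 0.00024; −1.23 by total counts). Tob1, an inhibitor of proliferation, rose by 1.57 (SE 0.261, adjusted p = 0.000824).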
